A study of Canis lupus familiaris with 30 samples.

Results

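Granins and the enzymes that process prohormones were followed across 30 canine thyroid carcinomas (TC). The 9 genes were *CHGB*, *SCG2*, *SCG3*, *SCG5*, *VGF*, *PCSK1*, *PCSK2*, *CPE* and *PAM*. They were picked by gene symbol from a table of 30424 genes. All 9 were found, each under a single Ensembl identifier. All 9 passed a minimum of 10 counts in at least 5 tumors, which 18711 genes of the table passed.

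RNA was sequenced from frozen primary thyroid tumors of dogs, as total RNA depleted of ribosomal RNA, and the reads mapped to each gene were counted. The study sorted its tumors into follicular (FTC) and medullary (MTC) carcinomas, but the sample labels give all 30 libraries as tumor tissue and do not say which tumor belongs to which kind. The study's supplementary data give the kind by library, which was not used here. The 30 tumors were therefore kept as 1 group, each was named by its library, and no comparison between FTC and MTC was made. Normal thyroid was not analysed here.

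Endocrine cells that secrete peptides store them in dense core granules. Granins are acidic proteins that gather in the trans-Golgi network with the peptide precursors, help to form these granules, and are themselves cut into peptides. The prohormone convertases PCSK1 and PCSK2 cut precursors at pairs of basic residues, carboxypeptidase E (CPE) trims the basic residues left behind, and PAM amidates the peptide's end. Calcitonin, the hormone of the thyroid C cell, is made by this route and is amidated. Follicular cells instead release thyroid hormone from thyroglobulin held in the follicle, which does not pass through such granules.

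The reads assigned to genes numbered from 12288945 to 45148677 per library (median 25569678). Counts were scaled by a median-of-ratios size factor, which ran from 0.279 in TC538 to 1.62 in TC1218. A level is the log2 of this normalized count plus 1. A level difference of 1 is thus a doubling, except near 0, where the added 1 shrinks it. Levels were compared between tumors within a gene, not between genes, because no transcript lengths were used. Each tumor was sequenced as 1 library, so neighbouring tumors in an order carry no spread of their own, and a low level in bulk RNA does not separate fewer cells of a type from less RNA per cell. No tumor pair had identical counts, and the labels give no batch or date.

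Most of these genes were expressed at a high level in the same 5 tumors, TC1020, TC1473, TC1601, TC1936 and TC2289. These tumors were the highest 5 for *SCG2*, *SCG3*, *SCG5*, *PCSK1*, *PCSK2*, *CPE* and *PAM*, 7 of the 9 genes. The set was defined by *SCG2*, so *SCG2* itself was bound to be among the 7. Of all 18711 genes, 1.80% had these same highest 5 tumors. *CHGB* and *VGF* were the exceptions, each with 4 of the 5 tumors among its highest 5. The 9 genes together took 0.961% to 1.54% of the counts in these 5 libraries and at most 0.0749% in any other library.

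**Figure D1:**
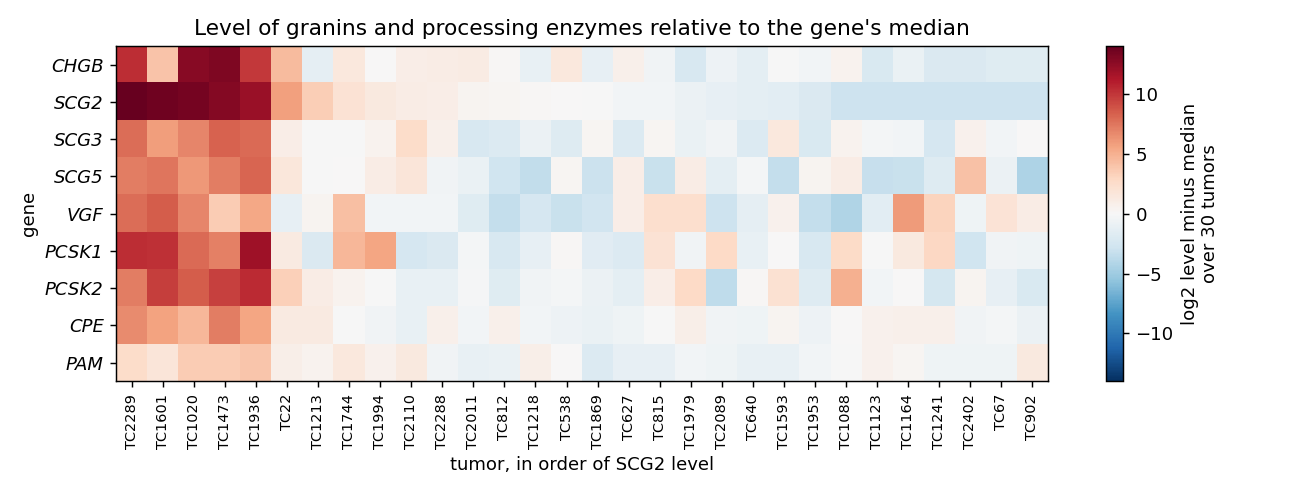
Log2 level of each gene (rows) in each of 30 tumors (columns, ordered by *SCG2* level), as the difference from the gene's median over the 30 tumors; red is above and blue below the median. The leftmost 5 tumors are red in nearly every row, palest in the *PAM* row, in *CHGB* for TC1601 and in *VGF* for TC1473, and TC22 follows in *CHGB*, *SCG2* and *PCSK2*.

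A gap in the order of the tumors was used to describe how sharply a gene divided them. The widest gap between neighbouring tumors, with at least 3 tumors on either side, reached 2 on the log2 scale (4-fold) in 7 of the 9 genes, all but *VGF* and *PAM*. Over all genes, 2.10% had such a gap. In *SCG2*, *SCG3*, *PCSK2* and *CPE*, 4 of the 9 genes, the gap lay below the highest 5 tumors, as in 0.524% of all genes. *CHGB* had 4 tumors above its gap, *PCSK1* had 3 and *SCG5* had 6.

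**Figure D2:**
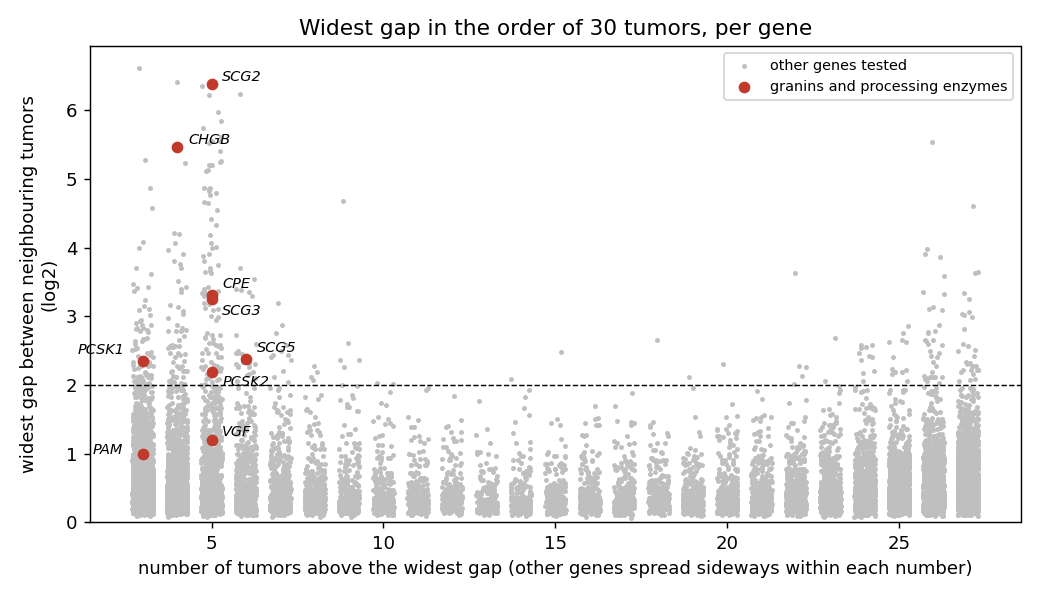
Widest gap between neighbouring tumors (vertical axis, log2) against the number of tumors above it (horizontal axis) for each of 18711 genes; red points are the granins and processing enzymes and the dashed line is a gap of 2. Of the red points, 7 lie above the line with 3 to 6 tumors above the gap, and *VGF* at 1.20 and *PAM* at 1.00 lie below it.

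Among the granins, *SCG2* (secretogranin II, ENSCAFG00000016186), the precursor of secretoneurin, varied most. Its level was 17.64 in TC2289, 16.57 in TC1601, 16.31 in TC1020, 15.81 in TC1473 and 15.04 in TC1936, the lowest of the 5 with 31912 counts. The next tumor was TC22 at 8.66 (573 counts), 83.5-fold below TC1936, and TC1213 followed at 6.33 (100 counts). The median was 2.93 (6 counts), and 7 tumors had a count of 0, which allows up to 3 counts. The SD of *SCG2* over the tumors, 5.63, was the largest among the 18711 genes, for which the median SD was 0.95. The highest 5 tumors held 99.9% of the summed normalized counts of *SCG2*, against a median of 36.1% for each gene's own highest 5.

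*CHGB* (chromogranin B, ENSCAFG00000005988) divided the same tumors differently. It was at 16.66 in TC1473, 16.37 in TC1020, 13.90 in TC2289 and 13.51 in TC1936. TC1601, second highest for *SCG2*, had a *CHGB* level of only 7.61 (226 counts), below TC22 at 8.05 (375 counts). The levels of *CHGB* in the 5 tumors thus spanned 9.05. The difference *CHGB* minus *SCG2* was lowest of all tumors in TC1601, at -8.96, against a median of 0.75. This and the later differences between genes contain the unequal lengths of the genes and were read only between tumors. Most tumors had few counts of both *CHGB* and *SCG2*, so the added 1 enters the median of 0.75. From the seventh tumor on, *CHGB* was at 5.06 or less, and 16 of the 30 tumors had under 10 counts.

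*SCG3* (secretogranin III, ENSCAFG00000015489), which binds granins to the granule membrane, was detected in every tumor, from 4.91 in TC1241 (29 counts) over a median of 7.30 to 15.52 in TC1473 (51782 counts). The other 4 high tumors were TC1936 at 15.18, TC2289 at 15.14, TC1020 at 14.13 and TC1601 at 13.15. TC2110 came next at 9.90 (1095 counts), a gap of 3.25. TC2110 also had the seventh highest *SCG5* level but the lowest *CPE* level, 6.81.

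*SCG5* (ENSCAFG00000008219) encodes 7B2, the chaperone that *PCSK2* protein needs to become active. Its level was 14.43 in TC1936, 13.82 in TC1601, 13.49 in TC1473, 13.48 in TC2289 and 12.41 in TC1020. A sixth tumor, TC2402, reached 10.41 (1351 counts), and the widest gap, 2.38, lay below it. In TC2402 *SCG5* stood apart from the other genes, with 0 counts of *SCG2*, 2 of *CHGB*, 1 of *PCSK1* and 70 of *PCSK2*. The difference *SCG5* minus *PCSK2* was highest in TC2402, at 4.25, against a median of -0.58. *SCG5* was lowest in TC902, at 1.94.

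*VGF* (ENSCAFG00000013907), a granin-like precursor first known as induced by nerve growth factor, had the narrowest of the granins' widest gaps, 1.20. Its level was 14.70 in TC1601, 13.97 in TC2289, 12.98 in TC1020, 12.20 in TC1164 and 11.61 in TC1936. TC1744 at 10.41 (1453 counts) lay above TC1473 at 9.71 (919 counts), and TC1241 at 9.32 (633 counts) close below. TC1164 held 3644 counts of *VGF* beside 0 counts of *SCG2*, 4 of *CHGB* and 6 of *SCG5*. The lowest level of *VGF*, 2.00, was in TC1088.

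**Figure D3:**
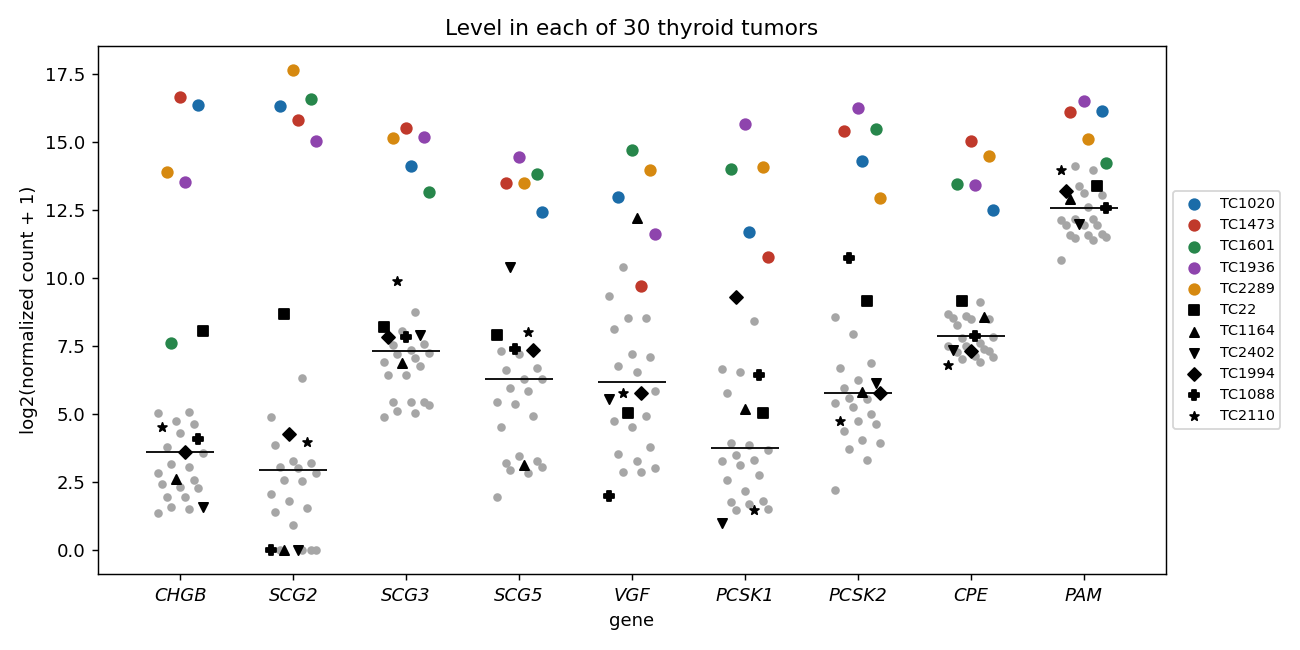
Log2 level of each gene (horizontal axis) in each of 30 tumors; colored circles are the 5 tumors highest for *SCG2*, black symbols are 6 further tumors named in the text, gray points the remaining tumors and lines the medians. Colored circles stand above all other points in *SCG2*, *SCG3*, *SCG5*, *PCSK1*, *PCSK2*, *CPE* and *PAM*, and overlap with them in *CHGB* (TC1601 at 7.61) and *VGF* (TC1473 at 9.71).

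The convertases were both highest in these 5 tumors, in unlike orders. *PCSK1* (ENSCAFG00000007882) was at 15.67 in TC1936, 14.09 in TC2289 and 14.02 in TC1601, then, after the widest gap of 2.35, at 11.67 in TC1020 and 10.77 in TC1473. *PCSK2* (ENSCAFG00000005498) was at 16.24 in TC1936, 15.47 in TC1601, 15.39 in TC1473, 14.29 in TC1020 and 12.94 in TC2289. TC1473 was thus lowest of the 5 for *PCSK1* and the third highest for *PCSK2*, while TC2289 was second for *PCSK1* and lowest of the 5 for *PCSK2*. The difference *PCSK1* minus *PCSK2* contains the unequal lengths of the genes and was read only between tumors. It ran from -4.63 in TC1473 over -2.61 in TC1020, -1.45 in TC1601 and -0.56 in TC1936 to 1.15 in TC2289. Over all 30 tumors it had a median of -2.50 and went from -5.25 in TC1979 to 4.33 in TC2089.

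Outside these 5 tumors the next highest levels of *PCSK1* and of *PCSK2* lay in different tumors. TC1994 had the next *PCSK1* level, 9.31 (451 counts), and TC1744 followed at 8.43 (368 counts). Their *PCSK2* levels, 5.76 (38 counts) and 6.25 (80 counts), were near the *PCSK2* median. TC1088 had the next *PCSK2* level, 10.74 (1720 counts), and TC22 followed at 9.15 (806 counts). Their *PCSK1* levels, 6.45 (87 counts) and 5.03 (45 counts), were above the *PCSK1* median. The medians were 3.77 (12 counts) for *PCSK1* and 5.79 (57 counts) for *PCSK2*. The lowest levels were 1.01 in TC2402 for *PCSK1* and 2.22 in TC2089 for *PCSK2*.

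**Figure D4:**
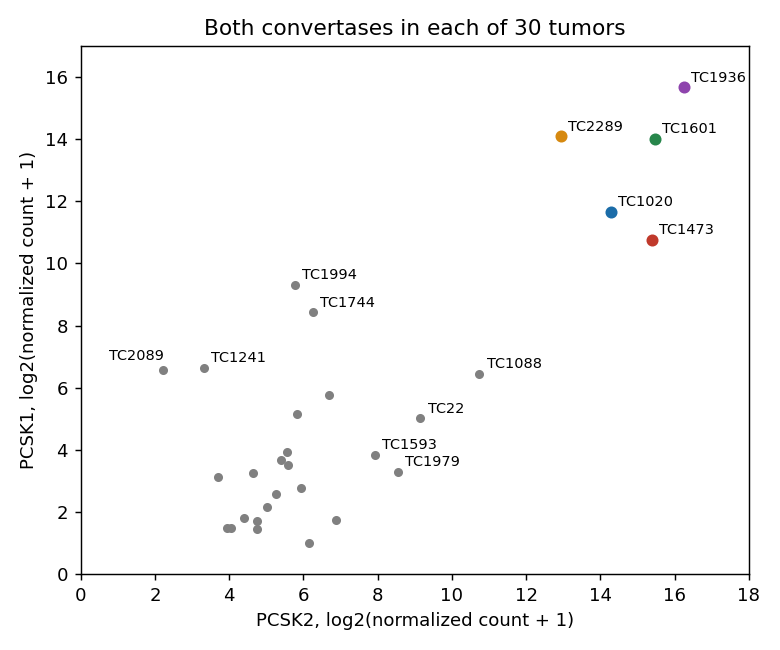
Log2 level of *PCSK1* (vertical axis) against *PCSK2* (horizontal axis) in each of 30 tumors; colored points are the 5 tumors highest for *SCG2*. These 5 lie at the upper right, TC1994 and TC1744 lie higher in *PCSK1* than tumors of like *PCSK2* level, and TC1088 and TC22 follow the 5 along the *PCSK2* axis.

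The trimming and amidating enzymes were present in every tumor. *CPE* (ENSCAFG00000008861) was at 15.02 in TC1473, 14.49 in TC2289, 13.45 in TC1601, 13.41 in TC1936 and 12.48 in TC1020. The remaining 25 tumors lay close together, from 6.81 in TC2110 (128 counts) to 9.16 in TC22 (814 counts), and the gap below TC1020 was 3.31. *CPE* therefore had the smallest range outside the 5 tumors of the 9 genes. The highest 5 tumors held 93% of its summed normalized counts.

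*PAM* (ENSCAFG00000007593) showed the smallest contrast. It was at 16.50 in TC1936, 16.15 in TC1020, 16.11 in TC1473, 15.11 in TC2289 and 14.24 in TC1601 (22599 counts). TC1744 at 14.11, TC902 at 13.97 and TC2110 at 13.95 followed TC1601 closely. The median was 12.58 (5804 counts) and the lowest level was 10.65 in TC1869 (1833 counts). The highest 5 tumors held 63.6% of the summed normalized counts of *PAM*, which was place 3567 of 18711 by SD, where *CPE* was place 942 and the other 7 genes were among the first 197.

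TC22 came closest to the 5 tumors. It was above the median in 8 of the 9 genes and among the highest 8 tumors in 6, with *VGF* at 5.03 as the gene below the median. TC1744 was above the median in 7 genes and among the highest 8 in 5.

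Defining markers of the C cell were set beside these levels (*CALCA*, *CALCB*, *RET* and *GFRA4*, all found). Their summed level was 19.36 in TC1936, 18.75 in TC1020, 17.84 in TC1473, 17.47 in TC1601 and 13.61 in TC2289, then 13.03 in TC22, with a median of 9.00 and a lowest value of 5.35. The 5 tumors were therefore also the highest 5 for this list. Its members did not run in parallel. TC2289, highest for *SCG2*, had only 95 counts of *CALCA*, the calcitonin gene (level 6.94, place 15), beside 9319 counts of *RET*, the receptor kinase. TC1473 had 4 counts of *GFRA4*. TC22 had 10889 counts of *CALCA* but 349 of *RET*. The summed level of 8 follicular cell markers was 9.11 in TC2289, 11.52 in TC1473, 11.75 in TC1020, 12.96 in TC1936, 17.78 in TC1601 and 18.22 in TC22, within a range of 7.95 in TC1088 to 22.75 and a median of 18.52. The part of cell content in the divide between these 5 tumors and the rest was not tested.

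TC1164, TC2402 and TC1994, where a single gene stood out, had C cell markers near or below the median of 9.00. Their summed C cell levels were 6.25, 8.99 and 9.01, and their follicular levels were 19.52, 18.16 and 21.65. TC1088, with the sixth highest *PCSK2*, had 6.83 for the C cell list and the lowest follicular level.

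A further 23 genes of prohormone processing and granule formation were listed, of which 19 were found by symbol, all passing the count minimum. Of the 19, 1 had a gap of 2 or more, *PTPRN*, beside 2.10% of all genes. *PTPRN* and *PTPRN2*, phosphatase-like proteins of the granule membrane, had the same highest 5 tumors as *SCG2*, beside 1.80% of all genes. *PTPRN* was at 14.16 in TC1601, 13.35 in TC1936, 13.07 in TC2289, 13.00 in TC1020 and 11.29 in TC1473, and the next tumor, TC22, was 5.13 lower at 6.16. *PTPRN2* had a median of 9.13, and TC1473, the lowest of the 5 at 12.24, lay close above TC1869 at 11.38. *QPCT*, which forms the pyroglutamyl start of some peptides, had 4 of the 5 tumors among its highest 5, with TC1241 at 10.78 as the other. *PCSK1N*, which encodes proSAAS, a granin-like inhibitor of *PCSK1* protein, was highest in TC2289 at 10.14, but TC640 (9.88) and TC815 (8.91) were also among its highest 5.

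The more widely expressed convertases and the carboxypeptidase *CPD* each had a set of highest 5 tumors other than that of *SCG2*. The same holds for nearly all genes, as 1.80% of the 18711 genes had the set of *SCG2*. The highest level was 13.66 in TC1744 for *FURIN*, 12.84 in TC1088 for *PCSK5*, 12.44 in TC1936 for *PCSK6*, 11.13 in TC1601 for *PCSK7* and 13.04 in TC538 for *CPD*. The widest gap of these 5 genes was 0.85, in *PCSK6*. The SD was 0.89 for *FURIN*, 0.79 for *CPD* and 0.73 for *PCSK7*, below the median of all genes, and 1.94 for *PCSK5* and 1.96 for *PCSK6*, above it.

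For each gene, the 3 genes that kept the most constant distance in level over the 30 tumors were listed by the SD of the difference. None of these 27 places was taken by another of the 9 genes. The 9 genes are few among all genes searched, so this count says little about them. The distance was taken over all 30 tumors, so the divide between the highest tumors and the rest enters it. *SCG2* was nearest to *PAPPA2* (1.47), *CRSP-2*, a calcitonin receptor-stimulating peptide (1.57), and *SCGN*, the calcium sensor secretagogin (1.60). *CHGB* was nearest to *GPR158* (1.62), and *SCG3* to *CLVS2* (1.26) and *GDAP1* (1.27), which were also nearest to *SCG5* (both 1.87). *VGF* had *SLC6A17* (1.92), *OLFM1* (1.95) and *SYT5* (2.00). *PCSK2* was nearest to *FXYD2* (1.28), *SEZ6L2* (1.46) and the homeodomain gene *ISL1* (1.50), and *PCSK1* also to *FXYD2* (2.01). *CPE* was nearest to *AVPR1B* (0.91) and *PAM* to *TBC1D9* (0.77). The closest pair within the 9 genes was *SCG3* and *CPE* (1.50), beside their own SDs of 3.17 and 2.37. *CPE* and *PAM* followed (1.54), a distance no smaller than the SD of *PAM* itself, 1.52.

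A correlation over all tumors would mostly restate the divide, so coefficients were taken within the larger branch of a clustering of the tumors. The clustering used 737 variable genes, without the 9 genes, the further genes and the markers, and its smaller branch was the same 5 tumors. In the remaining 25 tumors, of 36 pairs, 0 passed an adjusted p of 0.05 when each gene was tested against all genes (two-sided permutation tests, Benjamini-Hochberg), where 0.00% of all genes passed for 8 of the 9 genes and 0.102% for *VGF*. Without adjustment 3 pairs were below 0.05, beside 3.36% (*SCG5*) to 9.63% (*SCG2*) of all genes for each of the 9 genes. Spearman's rho over the pairs ran from -0.24 to 0.64 with a median of 0.14.

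*CHGB* and *SCG2* had the highest coefficient, with rho = 0.64 (permutation p = 0.00091, adjusted p = 0.734) and Pearson's r = 0.71 (permutation p = 0.00025). Without TC22 and TC538, the tumors farthest from the median *CHGB* level, r was 0.53 (permutation p = 0.0104). Both genes were low here, with medians of 8 and 4 counts. The convertase *PCSK2* had rho = 0.41 with *SCG3* (permutation p = 0.0432, adjusted p = 0.965) and rho = 0.41 with *CPE* (permutation p = 0.0431, adjusted p = 0.965). Pearson's r was 0.36 (permutation p = 0.0723) and 0.40 (permutation p = 0.0499), and 0.43 (permutation p = 0.0426) and 0.34 (permutation p = 0.107) without the farthest 2 tumors. 

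**Figure D5:**
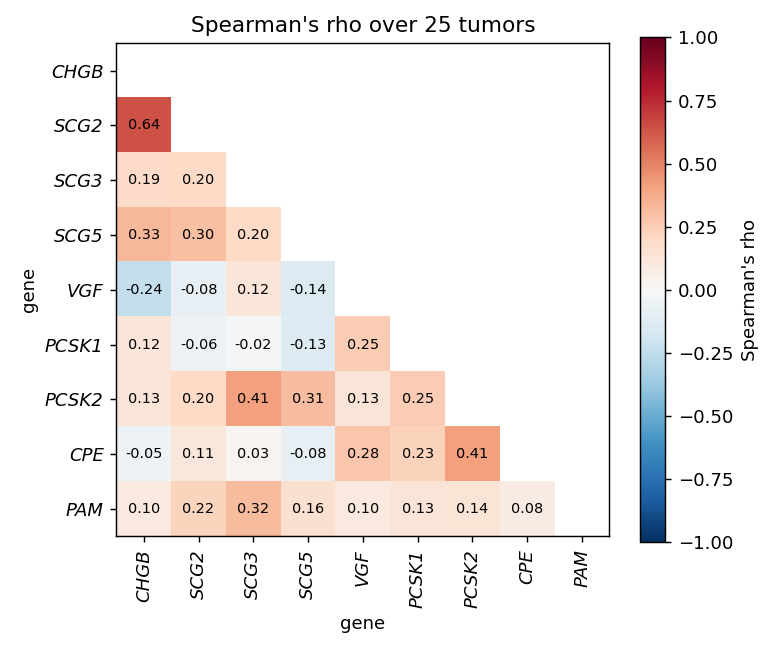
Spearman's rho of the log2 levels for each of 36 gene pairs over the 25 tumors of the larger branch; red is positive and blue negative. *CHGB* with *SCG2* is highest at 0.64, *PCSK2* with *SCG3* and with *CPE* follow at 0.41, and *VGF* with *CHGB* is lowest at -0.24.

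The 9 genes were also tested against the summed markers of 11 cell types in these 25 tumors. The sums are of normalized counts, so the most abundant gene can set a list's order. The lymphocyte sum mostly followed *CD79A*, with a median of 13649 counts over all tumors, against 386 for *PTPRC*. TC1994 was at place 2 for *PTPRC* and *CD2* but at place 25 for the list. *TG* led the follicular sum (median 366421 counts, next *DUOX2* with 18547). The C cell sum mostly followed *CALCA* or *RET*. A relation to a list is thus not shown to be one to a cell type. Of 99 relations, 0 passed an adjusted p of 0.05 over all genes, and 7 were below 0.05 without adjustment. Among 99 permutation tests some p-values fall below 0.05 without any relation, so the 7 are given as values only. The share of all genes below 0.05 without adjustment was not counted for these lists. The share of all genes that passed was 0.0481% for the follicular cell list, 0.550% for Schwann cells, 0.657% for fibroblasts, 3.54% for endothelial cells, 1.38% for lymphocytes, 0.684% for macrophages and 0.00% for the other 5 lists. *SCG2* had a median of 4 counts in these 25 tumors and 0 counts in 7 of them, so all its coefficients here rest largely on few reads. The relation of *SCG2* to the C cell list had rho = 0.74 (permutation p = 9e-05, adjusted p = 0.318) and r = 0.75 (permutation p = 1e-05, the smallest the permutations allow). Without TC22 and TC812 r was 0.68 (permutation p = 0.00041). *CHGB* had rho = 0.42 with the C cell list (permutation p = 0.0377, adjusted p = 0.379) and r = 0.50 (permutation p = 0.0108), which was 0.26 without TC22 and TC812 (permutation p = 0.235), so that this relation rests on those tumors. The parathyroid list (*PTH*, *GCM2* and *CASR*) rested on few reads in most of these 25 tumors. Outside TC2288, *PTH* had at most 21 counts and *GCM2* at most 7. *CASR*, which C cells also express, had 593 counts in TC2288, 586 in TC1979, 136 in TC22 and at most 33 elsewhere. Coefficients with this list thus do not show a link to parathyroid cells. With the parathyroid list, *CPE* had rho = 0.55 (permutation p = 0.00467, adjusted p = 0.714) and r = 0.48 (permutation p = 0.00774), or 0.56 without TC2288 and TC1979. *VGF* and *PCSK2* had rho = 0.44 (permutation p = 0.0296, adjusted p = 0.769) and 0.41 (permutation p = 0.0447, adjusted p = 0.772) with this list, with r = 0.21 (permutation p = 0.327) and 0.20 (permutation p = 0.302), or 0.34 and 0.46 without these tumors. *SCG2* had rho = 0.47 with the fibroblast list (permutation p = 0.0192, adjusted p = 0.237) and r = 0.41 (permutation p = 0.0426), or 0.47 without TC2089 and TC2011. The relation of *SCG2* to the macrophage list had rho = 0.66 (permutation p = 0.00045, adjusted p = 0.0581) and r = 0.61 (permutation p = 0.00115), or 0.57 without TC1123 and TC1994, and without TC538, whose size factor was the smallest, rho was 0.67 with an adjusted p of 0.0355 (permutation test).

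Of all genes, 19 had an adjusted p below 0.05 with *VGF* in the 25 tumors, 16 of them with a positive rho, while 0 genes did for the other 8 genes, for which 629 to 1801 genes were below 0.05 without adjustment. *SLC12A7*, a potassium-chloride cotransporter, had rho = 0.88 (adjusted permutation p = 0.0312) and r = 0.89 (permutation p = 1e-05), or 0.87 without TC1164 and TC1744. *MPZL2*, a cell adhesion protein, had rho = -0.82 (adjusted permutation p = 0.034) and r = -0.67 (permutation p = 0.00017), or -0.75 without these tumors. Both genes were named after their values were seen. The count of 19 fell to 0 without TC1088, which had the lowest *VGF* level, to 4 without TC538 and to 8 with Pearson's r.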

How the data were processed

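The authors extracted RNA from frozen tumors, prepared ribosomal RNA depleted total RNA libraries, aligned the read pairs to CanFam3.1 using STAR, which also counted reads per gene, and deposited these raw counts. The strand setting of the deposited counts is not given in the sources used here. In the UU_Cfam_GSD_1.0 annotation, *SCG3*, *PCSK1* and *CPE* each overlap 1 long noncoding RNA gene and *PCSK2* overlaps 4, so part of their reads could belong to these. The number of columns that belong to no tumor was 0.

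Counts were divided by median-of-ratios size factors over 15611 genes with a count in all 30 tumors, and log2(value + 1) was taken. Genes had to reach 10 counts in 5 or more tumors. Because the labels give 1 group, levels are described without a test between groups. A count of 0 allows up to 3 counts, which covers counting error only. Tumors were clustered with Ward linkage on genes whose level had a mean over 2 and a variance over 6. Correlations used two-sided permutation tests with 100000 resamples and Benjamini-Hochberg adjustment over all genes tested. The p-values give how often tumors paired at random reached a coefficient at least as large, over tumors each sequenced once.

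The 9 genes, the further genes and the marker lists were chosen with earlier results of these data known. Named genes are these lists and, for each of the 9, the 3 genes with the smallest SD of the difference in level. *CPM*, *AEBP1*, *CTSL* and *RESP18* were not matched by symbol. Some genes are not reported here, 1 of them a C cell marker, which was left out of that list's sum. Alternatives were TMM scaling (edgeR 4.0.16, R 4.3.3), a pseudocount of 8, no or a stricter count minimum (50), complete linkage, Pearson's r, and leaving out TC1088 or TC538. Calculations used Python 3.11.15, numpy 2.4.6, scipy 1.17.1 and pandas 2.3.3, figures matplotlib 3.10.9. The gap and correlation steps were tested on simulated data. The simulated counts left out genes with low medians, so the gap step was not tested at medians as low as those of *SCG2*, *CHGB* and *PCSK1*.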

Additional observations from a re-analysis of the deposited data

How the results depend on the processing

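The number of the 9 genes with a gap of at least 2 was 7 under every alternative run for it. The number with the highest 5 tumors of *SCG2*, which includes *SCG2* itself, was also 7 under every alternative run for it. As reported, *CHGB* is in the first set alone and *PAM* in the second alone. Over all genes, the 393 with such a gap ranged from 282 with a pseudocount of 8 to 540 without a count minimum, and the 337 with the same highest 5 tumors from 341 with TMM scaling to 379 without TC1088. The larger branch held 25 tumors under complete linkage and with a pseudocount of 8. The number of genes correlated with *VGF* was the least stable value, 19 as reported, 23 with TMM scaling, 19 with a pseudocount of 8, 8 with Pearson's r, 4 without TC538 and 0 without TC1088. Relations to marker lists with an adjusted permutation p below 0.05 went from 0 to 1 without TC538 (*SCG2* with macrophage markers). The alternatives for the same highest 5 tumors and for *VGF* were added after seeing the data. The cause of these changes was not tested. Counts limit *SCG2*, *CHGB* and *PCSK1* most, which had medians of 4, 8 and 11 counts in the larger branch. Differences between tumors with few counts of these genes rest on few reads and were not tested. No paired analysis was possible because the labels give 1 group.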

Other observations

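Among the marker genes set beside the 9 genes, *PNMT*, the enzyme that turns noradrenaline into adrenaline, was high in TC1936 (14.55, 22736 counts) and TC1601 (12.58, 7124 counts), both among the highest 5 tumors for *SCG2*. In the other 3 of these tumors it was at 2.55 in TC1020, 1.90 in TC1473 and 2.61 in TC2289. *TH* and *DBH*, which encode the earlier enzymes of that pathway, had 0 and 0 counts in TC1936 and 4 and 2 counts in TC1601, so *PNMT* stood alone among them.

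*CASR*, the calcium-sensing receptor of parathyroid cells and C cells, was at 15.48 in TC1020, 14.85 in TC1473, 13.84 in TC1936, 13.65 in TC2289 and 13.37 in TC1601, and at 9.38 in TC2288, the sixth. *PTH*, which defines parathyroid cells, was highest in TC2288 at 14.80 (25445 counts) and followed there by *GCM2* at 7.65 (178 counts), where no other tumor had a *PTH* level above 8.29. None of the 9 genes placed TC2288 among its highest 8 tumors. These genes were named after their values were seen.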
